A study of Mus musculus with 168 samples.

Results

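Neurons of the vagus nucleus were followed from postnatal day 2 to day 10 in control mice. The members were the libraries labelled as vagus nucleus motor neurons of control mice at days 2, 5 and 10, which gave 11 of the 168 libraries of the series. Each library came from a different mouse, with 3 mice at day 2, 4 at day 5 and 4 at day 10. The neurons had been cut by laser from brainstem sections, about 150 cells to a tube, and sequenced with Smart-seq2, which copies polyA RNA from few cells into cDNA along its whole length. The controls were littermates from the delta7 breeding of spinal muscular atrophy (SMA): they were Smn+/+ and, like the SMA mice, carried the human transgenes SMN2+/+ and SMN∆7+/+. They are therefore not wild-type mice. SMA vagus neurons, Smn-/- on the same transgenes (6, 3 and 5 mice at days 2, 5 and 10), and control hypoglossal (4, 4 and 4 mice) and facial neurons (5, 4 and 4 mice) are used only to ask whether the same changes occurred there. Cells were pooled within a tube, so fewer cells of a type and less RNA per cell cannot be told apart.

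The motor neurons of the vagus nucleus are cholinergic, but unlike those of the hypoglossal and facial nuclei, which drive tongue and face muscle, they are mostly visceral: they project to ganglia of the gut, heart and airways. Their activity is shaped by gut hormones such as cholecystokinin, and they express neuropeptides beside acetylcholine. In the days after birth brain neurons finish axon growth, reduce growth-related cytoskeletal proteins, and replace juvenile channels, receptors and metabolic enzymes with adult forms.

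Values of single mice are listed below in the order 26, 240 and 244 for day 2, 29, 30, 34 and 71 for day 5 and 247, 252, 253 and 254 for day 10. The libraries held transcripts of the vagal motor identity list, and none of its 11 tested genes passed the test between days 2 and 10. Prph, encoding peripherin, ranged from 602 to 688 RPKM (reads per kilobase of transcript and per 1e6 mapped reads) at day 2 and 724 to 1183 at day 10. The sum of this list was not particular to vagus neurons. At day 2 it was 1183 to 1441 RPKM there, 1505 to 1640 in hypoglossal and 1760 to 1915 in facial controls. None of 6 markers of other motor or regional identities, among them Mnx1 and Hoxc10, reached the level needed for testing (RPKM of at least 1 in at least 3 libraries). Markers of other neurons of the dorsal medulla summed to 90.4 to 212.5 RPKM at day 2 and 96.7 to 231.1 at day 10. In hypoglossal and facial controls they summed to 6.40 to 47.2 and 7.60 to 53.1 at day 2. Microglia markers in vagus neurons summed to 24.5 to 85.4 at day 2 and 37.7 to 63.2 at day 10. None of the tested members of either list (7 and 9) passed between days 2 and 10, and their part in the changes below was not tested. Smn1, the gene deleted in SMA mice, had 47.6, 18.6 and 44.1 RPKM at day 2, 27.4, 17.1, 25.1 and 16.1 at day 5 and 14.96, 22.1, 38.1 and 19.6 at day 10. It was thus detected in every control vagus library. SMA values are not set beside these, so the genotype labels were not tested. Depth, estimated from the steps between low RPKM values and given in units of 1e6 reads, was 6.30 to 7.02 at day 2, 6.88 to 8.92 at day 5 and 3.25 to 5.17 at day 10. Every day 10 library was therefore shallower than every day 2 library. The day 2 libraries of mice 240 and 244 held hypothalamic peptide transcripts: Hcrt was at 253.5 and 240.9 RPKM there, at 1.63 in day 2 mouse 26 and at most 5.95 in the others. Summed hypothalamic peptide markers also reached 748 RPKM in hypoglossal and 394 in facial controls at day 2, against at most 29.3 and 12.3 at day 10. The Y-linked gene Eif2s3y was at or above 20.8 in day 2 mice 240 and 244 and day 10 mice 247 and 252, and at most 0.245 in the other 7. Summed markers of oligodendrocytes ranged from 53.98 to 121.3 RPKM at day 2 and 42.6 to 90.03 at day 10, and astrocyte and vessel sums stand beside the falls of Vim and Fabp7. None of the tested members of these oligodendrocyte, astrocyte and vessel lists (6, 9 and 5) passed the test between days 2 and 10. The mean was lower at day 10 for 4, 4 and 4 of them, and the median differences were −0.09, 0.14 and −1.35.

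Between day 2 and day 10 several transcripts of immature and growing neurons fell in control vagus neurons, while a sodium channel subunit, a cholecystokinin receptor, 2 neuropeptides and a small heat shock protein rose. Of 14450 genes tested, 103 passed an adjusted p of 0.05 (0.713%): 60 rose (0.415%) and 43 fell (0.298%). For all 103 the mouse values did not overlap between the ages, which was the case for 10.9% of all genes tested. The rises spanned log2 differences of 0.76 to 3.41 and the falls −0.68 to −3.69, on the scale of log2(RPKM + 1), which understates changes of low genes. The median over all genes tested was −0.08, and 44.6% of them had a higher mean at day 10. The number of genes depended on single mice: leaving out 1 mouse gave from 0.176% of genes tested (25 genes), without day 2 mouse 240, to 0.830%, without day 10 mouse 252 (65 genes without mouse 26, 33 without 244, 42 without 247, 42 without 253 and 38 without 254). In all 7 of these fits 16 genes stayed past the threshold. Those that fell were Vim, Fabp7, Dcx, Nrep, Cxadr, Ifitm2 and the row Dynlt1-ps1, a pseudogene whose reads may belong to Dynlt1 copies. Those that rose were Scn2b, Cckar, Thy1, Ddc, Hspb8, Neat1, Slc16a11, Dynlt3 and the rRNA row Gm24601. A term for Y-linked expression left 51 genes, 48 of them among the 103. With day 2 represented by mouse 26 alone, a single mouse assumed to vary like the other ages, 3 genes passed, none of them among the 103, although all but 1 of the 103 could be tested and each of those had the same direction. Mouse 26 is itself part of the main comparison. Every day 10 library had a higher library number in its label than every day 2 library. Library number and age therefore cannot be told apart for the 103 genes. What these numbers stand for is not given. Mouse 26 also had a much lower library number than mice 240 and 244.

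**Figure D1:**
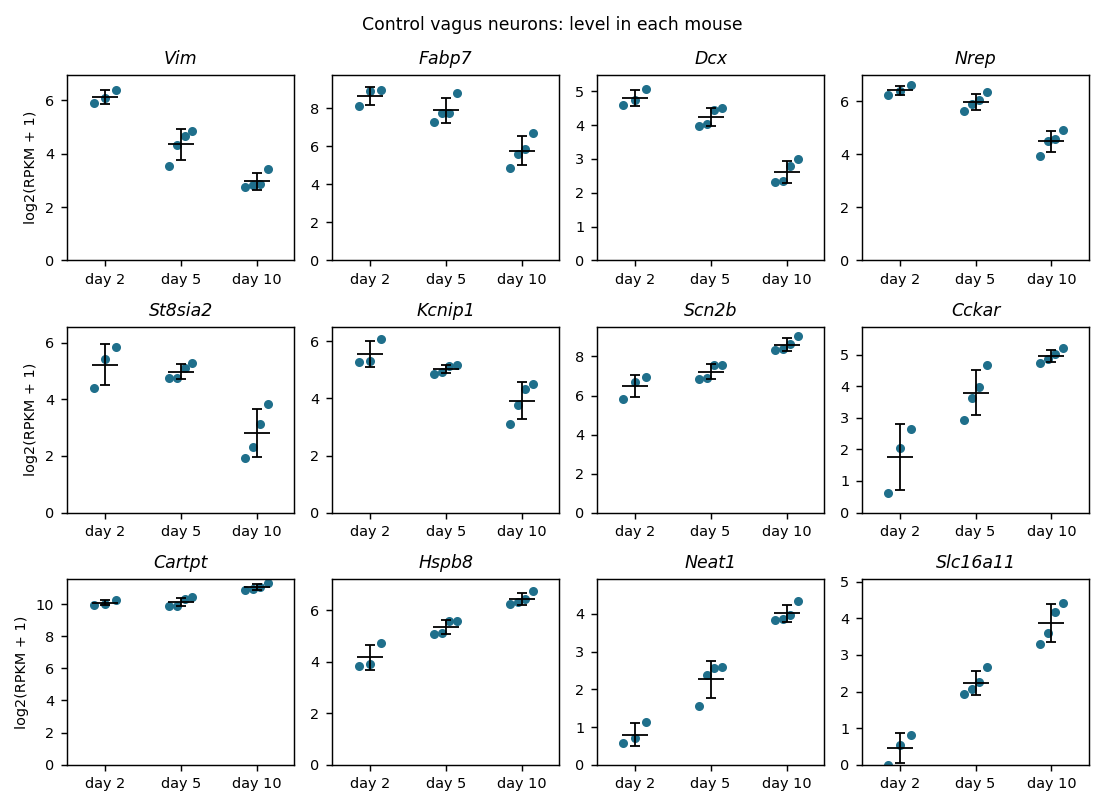
Level of 12 genes in every control vagus mouse, as log2(RPKM + 1), at postnatal days 2, 5 and 10; each point is a mouse (3, 4 and 4), placed in order of value, and bars are the mean ± SD. No day 2 mouse overlapped a day 10 mouse for any of the 12, with Vim, Fabp7, Dcx, Nrep, St8sia2 and Kcnip1 lower at day 10 and the other genes higher.

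The immature neuron and axon growth genes that changed all fell. Of 30 genes on this list 29 were tested, 5 fell, 0 rose and 3 had a higher mean at day 10, with a median of −0.44 against −0.08 over all genes. Dcx, encoding doublecortin, a microtubule-binding protein of migrating and extending neurons, had 23.1, 32.7 and 25.6 RPKM in the day 2 mice, 20.9, 14.8, 21.5 and 15.3 in the day 5 mice and 4.07, 3.97, 6.95 and 5.95 in the day 10 mice. All 4 day 10 mice lay under every day 2 and day 5 mouse. The log2 difference was −2.19 (SE 0.29, limma adjusted p = 0.00543). Nrep, a regeneration-associated gene, had 75.4, 82.2 and 96.7 RPKM in the day 2 mice, 58.1, 48.1, 81.5 and 64.6 in the day 5 mice and 14.4, 29.04, 23.1 and 21.6 in the day 10 mice. It also separated day 10 from both earlier ages, with a difference of −1.93 (SE 0.26, limma adjusted p = 0.00543). Crmp1, encoding a collapsin response mediator that carries guidance signals to microtubules, had 247.9, 219.6 and 278 RPKM at day 2 and 141, 106.8, 95.4 and 65.1 at day 10. Its difference was −1.32 (SE 0.23, limma adjusted p = 0.0247), and it missed the threshold without mice 26, 240, 244 or 253 (adjusted p 0.0596 to 0.0707). Marcksl1, a regulator of actin at the membrane, had 206.3 to 242.1 RPKM at day 2 and 116.3 to 150.5 at day 10. Its difference was −0.80 (SE 0.15, limma adjusted p = 0.0363); it missed the threshold without mice 26, 240, 244, 252, 253 or 254 (adjusted p 0.055 to 0.125). The fifth was Dpysl3, a relative of Crmp1, with 238.01 to 395 RPKM at day 2 and 145 to 191.8 at day 10 and a difference of −0.88 (SE 0.18, limma adjusted p = 0.0465); it missed the threshold without mice 240, 244, 247, 252, 253 or 254 (adjusted p 0.0697 to 0.135). The 3 most abundant members did not pass. Tuba1a, the main tubulin of growing neurons, differed by −0.07 (SE 0.17, limma adjusted p = 0.882), Tmsb10, an actin-sequestering peptide, by −0.28 (SE 0.19, limma adjusted p = 0.555) and Gap43, the growth cone protein, by −0.63 (SE 0.17, limma adjusted p = 0.102). Gap43 still had 1902, 2073, 1414 and 1580.5 RPKM at day 10, among the highest levels of the list.

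Other falls included an intermediate filament, a fatty acid carrier and adhesion genes. Vim, encoding vimentin, the intermediate filament of neural precursors, glia and vessels, had 58.7, 83.9 and 67.9 RPKM in the day 2 mice, 10.6, 19.1, 24.3 and 28.3 in the day 5 mice and 9.89, 5.65, 6.17 and 6.36 in the day 10 mice. Its day 2 values lay above all others. The log2 difference was −3.16 (SE 0.33, limma adjusted p = 0.00301). Fabp7, a fatty acid-binding protein of radial glia and young astrocytes, had 278, 504 and 471 RPKM in the day 2 mice, 447, 212, 212 and 152 in the day 5 mice and 57.8, 102.3, 27.9 and 47.4 in the day 10 mice. One day 5 mouse was as high as the day 2 mice and the day 10 mice were the lowest. The difference was −2.91 (SE 0.41, limma adjusted p = 0.00846). Summed astrocyte markers were 368 to 575 RPKM at day 2 and 613 to 807 at day 10, and summed vessel markers 12.4 to 23.6 and 1.58 to 13.4. Their part in these falls was not tested. Cxadr, a cell adhesion protein that is also the coxsackievirus receptor, had 42.9, 43.3 and 33.6 RPKM at day 2 and 8.02, 9.47, 8.21 and 7.02 at day 10, a difference of −2.15 (SE 0.27, limma adjusted p = 0.00427). St8sia2 makes the polysialic acid that loosens cell adhesion through NCAM in the young brain. It had 20.4, 41.7 and 56.8 RPKM in the day 2 mice, 38.2, 26.2, 25.99 and 33.8 in the day 5 mice and 7.72, 3.99, 2.803 and 13.3 in the day 10 mice. The fall came after day 5, when all values were still within the day 2 range. Its difference was −2.43 (SE 0.44, limma adjusted p = 0.0295), and it missed the threshold without mice 240, 244, 247 or 253 (adjusted p 0.0515 to 0.0961). Ifitm2, an interferon-inducible membrane protein with near-identical relatives, had 89.7, 120.9 and 74.7 RPKM at day 2 and 10.5, 28.5, 15.2 and 9.57 at day 10, a difference of −2.60 (SE 0.34, limma adjusted p = 0.00543). Mfge8, a secreted protein that bridges dying cells to phagocytes, differed by −2.56 (SE 0.50, limma adjusted p = 0.0363) and missed the threshold without mice 240, 244, 247, 253 or 254 (adjusted p 0.0554 to 0.114).

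The remaining large falls were of low genes. Lama4, a laminin chain of vessel walls, ranged from 7.16 to 17.4 RPKM at day 2 and 0 to 0.712 at day 10, a difference of −3.26 (SE 0.63, limma adjusted p = 0.0363); it missed the threshold in all 7 fits without 1 mouse (adjusted p from 0.0596 to 0.129). Ldoc1 differed by −2.96 (SE 0.61, limma adjusted p = 0.0451) and missed the threshold in all 7 fits without 1 mouse (adjusted p from 0.0514 to 0.129). Gtf3a, the factor that starts transcription of 5S ribosomal RNA, differed by −2.73 (SE 0.53, limma adjusted p = 0.0363) and missed the threshold without mice 240, 244, 247 or 253 (adjusted p 0.0712 to 0.129). Acot1, an acyl-CoA thioesterase with near-identical relatives, differed by −2.29 (SE 0.43, limma adjusted p = 0.0363) and missed the threshold without mice 240, 244, 247, 253 or 254 (adjusted p 0.0502 to 0.125). Tomm40l, related to the pore of mitochondrial protein import, was listed at 0 in 3 of the 4 day 10 mice and had 13.6 to 18.4 RPKM at day 2. It differed by −3.31 (SE 0.67, limma adjusted p = 0.0426) and missed the threshold without mice 26, 240, 244, 252, 253 or 254 (adjusted p 0.0673 to 0.111). Nudt8 had 9.697, 13.4 and 47.3 RPKM at day 2 and 0, 3.39, 0 and 0.205 at day 10, a difference of −3.69 (SE 0.73, limma adjusted p = 0.0405); it missed the threshold without mice 26, 240, 244, 247, 253 or 254 (adjusted p 0.0568 to 0.109). Depth was lower in every day 10 library, and its part in the falls of these low genes was not tested.

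Among ion channel genes 1 sodium channel subunit rose and 1 potassium channel subunit fell. Scn2b, the beta 2 subunit that raises the surface density of voltage-gated sodium channels, rose. It lies on chromosome 9, 45117782 to 45130070, plus strand of GRCm38. It had 120.4, 103 and 55.9 RPKM in the day 2 mice, 120.2, 186.9, 113.2 and 190.1 in the day 5 mice and 527, 405, 321 and 334 in the day 10 mice. All 4 day 10 mice exceeded every younger mouse, and the difference was 2.12 (SE 0.28, limma adjusted p = 0.00543). The other 7 sodium channel genes tested did not pass. The most abundant of them were Scn3b, the beta 3 subunit, which differed by −0.05 (SE 0.22, limma adjusted p = 0.935), Scn9a by −0.53 (SE 0.34, limma adjusted p = 0.523) and Scn3a, a pore subunit typical of the embryonic brain, by −0.36 (SE 0.21, limma adjusted p = 0.483). Of 40 potassium and HCN channel genes tested 0 rose and 1 fell, and 24 had a higher mean at day 10. The one that fell was Kcnip1, an accessory subunit of A-type potassium channels, with 39.2, 37.8 and 66.2 RPKM at day 2 and 19.2, 7.54, 21.7 and 12.6 at day 10. It differed by −1.63 (SE 0.33, limma adjusted p = 0.0448) and missed the threshold without mice 26, 240, 244, 247, 252 or 254 (adjusted p 0.053 to 0.116). None of 14 calcium channel genes passed.

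A gut hormone receptor and 2 neuropeptide transcripts rose. Cckar, the receptor through which the gut hormone cholecystokinin acts, lies on chromosome 5, 53697776 to 53707705, minus strand of GRCm38. It had 3.09, 0.535 and 5.31 RPKM in the day 2 mice, 24.5, 14.7, 6.700 and 11.3 in the day 5 mice and 28.3, 35.7, 25.6 and 31.7 in the day 10 mice. No 2 ages overlapped, day 5 lay between the others, and the mean at day 10 was 10.2 times that at day 2. The difference was 3.19 (SE 0.48, limma adjusted p = 0.0122). It was the only 1 of 29 tested receptors for gut, metabolic and modulatory signals to pass (0 fell). Mc4r, the melanocortin 4 receptor, differed by −0.78 (SE 0.23, limma adjusted p = 0.144), Npy2r, for neuropeptide Y, by −0.44 (SE 0.33, limma adjusted p = 0.582) and Oprl1, for nociceptin, by −0.30 (SE 0.27, limma adjusted p = 0.668). Of 30 neuropeptide and peptide-processing genes tested, 2 rose and 0 fell, 23 had a higher mean at day 10, and the median was 0.44.

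The first of them was Cartpt, encoding the feeding-related peptide CART and the second most abundant transcript of that list. It had 988, 1231 and 1039 RPKM in the day 2 mice, 957, 1283, 1361 and 939 in the day 5 mice and 2593, 1981, 2145 and 1882 in the day 10 mice. Day 5 was level with day 2 and day 10 was higher in every mouse. The difference was 0.98 (SE 0.17, limma adjusted p = 0.0247), and it missed the threshold without mice 26, 240, 244, 247 or 253 (adjusted p 0.055 to 0.0663). The 250 bases before its start, from RefSeq on GRCm38.p6 (chr13:99900684-99900933, minus strand), are shown because they hold the cyclic AMP response element in capitals, TGACGTCA, which reads the same on both strands and is the site known from peptide genes.
Cartpt promoter: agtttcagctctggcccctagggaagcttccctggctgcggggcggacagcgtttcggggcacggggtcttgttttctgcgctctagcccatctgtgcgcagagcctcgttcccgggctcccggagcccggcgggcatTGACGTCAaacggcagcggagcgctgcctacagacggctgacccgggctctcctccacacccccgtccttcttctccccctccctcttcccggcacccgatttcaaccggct
It was found 1 time. The same 8 letters occur in 1.55% of 32851 windows of 250 bases before RefSeq starts, and the match is a description, not a binding site.
Crh, encoding corticotropin-releasing hormone, had 6.13, 0 and 1.02 RPKM in the day 2 mice, 26.5, 27.6, 15.1 and 15.4 in the day 5 mice and 18.2, 41.4, 24.2 and 12.8 in the day 10 mice. It was already high in all 4 day 5 mice, unlike Cartpt. Its difference was 3.24 (SE 0.57, limma adjusted p = 0.0249), and it missed the threshold without mice 240, 244, 247 or 253 (adjusted p 0.0515 to 0.0805). Nppb, encoding a natriuretic peptide, had 98.99 to 130.1 RPKM at day 2, 135 to 207.8 at day 5 and 229.3 to 408 at day 10 without overlap between day 2 and day 10. It differed by 1.43 (SE 0.22, limma adjusted p = 0.0136) and missed the threshold without mouse 244 (adjusted p 0.0517). Gal, encoding galanin, was the most abundant peptide transcript and differed by 0.44 (SE 0.23, limma adjusted p = 0.409), and Cpe, a peptide-processing enzyme, by −0.25 (SE 0.14, limma adjusted p = 0.467).

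Genes of cholinergic transmission did not pass individually. Of 15 tested, 13 had a higher mean at day 10, and the median was 0.56. Chat, the enzyme that makes acetylcholine, was chosen after its values were seen. It had 7.798, 5.83 and 13.3 RPKM in the day 2 mice, 26.4, 17.6, 13.8 and 30.8 in the day 5 mice and 17.4, 30.6, 35.1 and 33.2 in the day 10 mice. Its day 2 mice lay under all 4 day 5 and day 10 mice, and the difference was 1.62 (SE 0.36, limma adjusted p = 0.0579). Ache, which breaks acetylcholine down, differed by 0.82 (SE 0.19, limma adjusted p = 0.0687), the nicotinic receptor subunit Chrna3 by 0.63 (SE 0.18, limma adjusted p = 0.135) and the choline transporter Slc5a7 by 0.55 (SE 0.23, limma adjusted p = 0.304). Lynx1, a membrane-anchored modulator of nicotinic receptors, was outside the list. It had 17.8, 18.9 and 19.7 RPKM in the day 2 mice, 18.8, 18.95, 19.3 and 23.2 in the day 5 mice and 55.3, 43.5, 48.5 and 71.1 in the day 10 mice. It held one level at days 2 and 5 and rose by day 10, with a difference of 1.46 (SE 0.23, limma adjusted p = 0.0148), but missed the threshold without mouse 240 (adjusted p 0.055). Thy1, a surface protein of mature axons with the same kind of anchor, had 54.8 to 85.7 RPKM at day 2 and 151 to 298 at day 10, a difference of 1.74 (SE 0.26, limma adjusted p = 0.0113). Ddc, which makes dopamine and serotonin, had 43.4 to 48.7 at day 2 and 98.01 to 127.9 at day 10, a difference of 1.21 (SE 0.18, limma adjusted p = 0.0136). Th, the enzyme before it in catecholamine synthesis and a marker of neighbouring neurons, had 21.01, 40.6 and 17.96 RPKM at day 2 and 42.7, 66.2, 92.1 and 61.99 at day 10; its part in the change of Ddc was not tested.

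**Figure D2:**
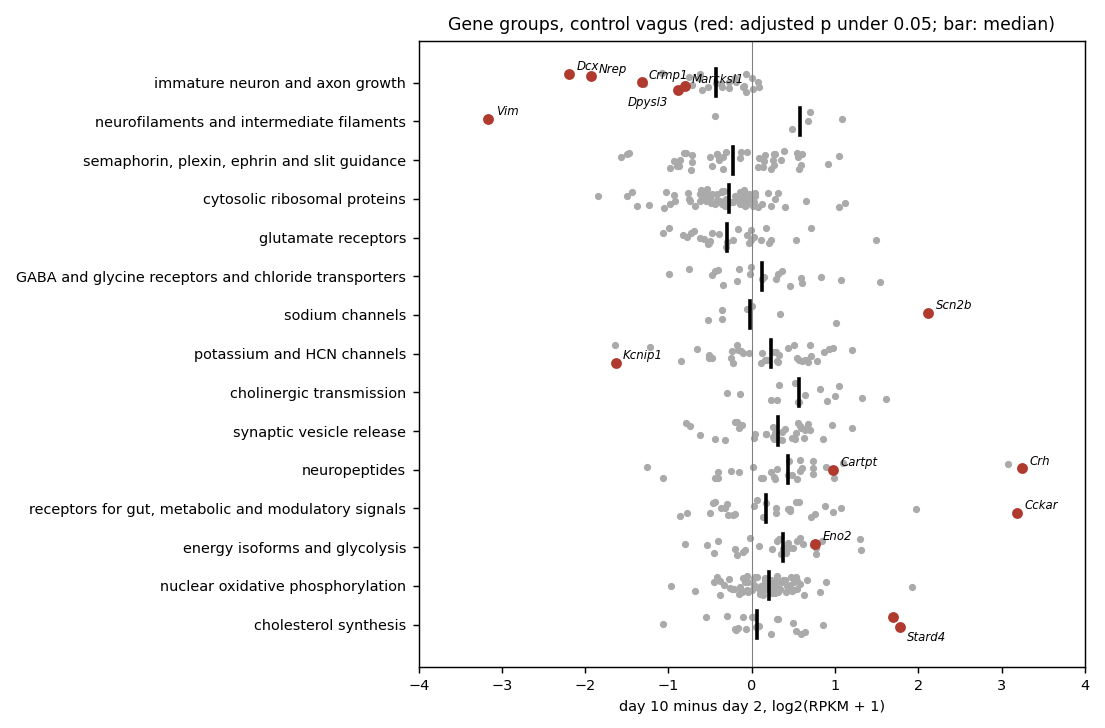
Log2 difference between day 10 and day 2 of each tested gene of 15 groups in control vagus neurons, on the scale of log2(RPKM + 1); red points passed an adjusted p of 0.05, grey points did not, and the black bar is the median of the group. Red points lie at the left in the immature neuron group and for Vim and Kcnip1, and at the right for Scn2b, Crh, Cartpt, Cckar, Eno2 and Stard4; 1 red point of the cholesterol synthesis group has no label.

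Neurofilament genes had higher means at day 10 but did not pass. Nefl, Nefm and Nefh encode the light, medium and heavy subunits of the axonal filament. Nefl had 1276, 1029.9 and 874 RPKM at day 2 and 1923, 1551, 1601 and 1772 at day 10, without overlap, and a difference of 0.70 (SE 0.16, limma adjusted p = 0.061). Nefh had 23.8, 20.7 and 19.3 and 50.7, 29.3, 48.6 and 61.7 and differed by 1.08 (SE 0.27, limma adjusted p = 0.0806), Nefm by 0.68 (SE 0.23, limma adjusted p = 0.211) and Prph by 0.48 (SE 0.17, limma adjusted p = 0.218). Of 6 tested intermediate filament genes only Vim passed, and 4 had a higher mean at day 10.

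A chaperone and its partner rose. Hspb8, a small heat shock protein, lies on chromosome 5, 116408491 to 116422864, minus strand of GRCm38, and Bag3 encodes the co-chaperone with which it sends misfolded proteins to autophagy in motor neurons. Hspb8 had 25.5, 13.4 and 14.1 RPKM in the day 2 mice, 33.1, 46.7, 33.3 and 46.8 in the day 5 mice and 85.3, 106.7, 75.02 and 79.4 in the day 10 mice. Each age was separate from the next. The difference was 2.28 (SE 0.26, limma adjusted p = 0.00305). Bag3 had 1.29, 1.38 and 3.12 RPKM in the day 2 mice, 10.6, 2.04, 4.26 and 8.57 in the day 5 mice and 16.02, 12.8, 9.38 and 13.8 in the day 10 mice, with overlap only between day 5 and the other ages. It differed by 2.29 (SE 0.47, limma adjusted p = 0.0448) and missed the threshold in all 7 fits without 1 mouse (adjusted p from 0.0655 to 0.132). The general heat shock list (6 tested) had 0 genes past the threshold. Nol3, an inhibitor of cell death, differed by 2.15 (SE 0.41, limma adjusted p = 0.0363) and missed the threshold without mice 26, 240, 247, 253 or 254 (adjusted p 0.0515 to 0.0961).

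Metabolic genes rose in single members. Slc16a11, a transporter of the monocarboxylate family, had 0, 0.766 and 0.463 RPKM in the day 2 mice, 3.18, 5.35, 3.79 and 2.82 in the day 5 mice and 8.88, 20.3, 11.02 and 17.04 in the day 10 mice, with no overlap between any 2 ages and a difference of 3.41 (SE 0.40, limma adjusted p = 0.00305). Eno2, the enolase of neurons, had 309 to 366 RPKM at day 2 and 522 to 693 at day 10. Its difference was 0.76 (SE 0.15, limma adjusted p = 0.041); it missed the threshold without mice 26, 240, 244, 247, 253 or 254 (adjusted p 0.0641 to 0.135). Eno3, the enolase best known from muscle, ranged from 2.37 to 8.28 RPKM at day 2 and 19.1 to 49.2 at day 10. It differed by 2.64 (SE 0.44, limma adjusted p = 0.0197) and missed the threshold without mice 26, 244 or 254 (adjusted p 0.0533 to 0.0655). Eno2 was the only 1 of 30 tested glycolysis and energy genes to pass, and 21 had a higher mean at day 10. Aldoa, which splits fructose bisphosphate, differed by 0.85 (SE 0.23, limma adjusted p = 0.108), Ckmt1, the mitochondrial creatine kinase, by 1.30 (SE 0.44, limma adjusted p = 0.199) and the sodium pump subunit Atp1b1 by 0.31 (SE 0.18, limma adjusted p = 0.475). In the sterol group 2 of 22 tested genes rose and 0 fell. Stard4, which moves sterol between membranes, differed by 1.78 (SE 0.36, limma adjusted p = 0.0448) and missed the threshold without mice 26, 240, 244, 247, 253 or 254 (adjusted p 0.0761 to 0.114). The synthesis enzyme Hmgcs1 differed by −0.11 (SE 0.18, limma adjusted p = 0.833).

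Neat1, the long noncoding RNA that builds nuclear paraspeckles (chromosome 19, 5824708 to 5845478, minus strand, GRCm38), had 0.483, 1.19 and 0.626 RPKM in the day 2 mice, 4.17, 5.01, 4.87 and 1.92 in the day 5 mice and 14.7, 13.4, 13.6 and 19.4 in the day 10 mice. The ages did not overlap and the difference was 3.21 (SE 0.37, limma adjusted p = 0.00305). Mbnl2, a splicing regulator of postnatal transcripts, had 21.8 to 25.7 RPKM at day 2, 33.5 to 36.9 at day 5 and 46.3 to 58.00 at day 10. It was the only 1 of 22 tested splicing regulators to pass (0 fell), with a difference of 1.14 (SE 0.20, limma adjusted p = 0.0247), and it missed the threshold without mice 26, 240, 244 or 254 (adjusted p 0.0568 to 0.0655). Dynlt3, a light chain of the dynein motor, had 38.1 to 64.2 RPKM at day 2 and 112.2 to 166.7 at day 10, a difference of 1.37 (SE 0.21, limma adjusted p = 0.0136). Serpinf1, a secreted neurotrophic factor, differed by 2.58 (SE 0.51, limma adjusted p = 0.0376) and missed the threshold in all 7 fits without 1 mouse (adjusted p from 0.0519 to 0.0974). The other rises named by size were Arl5c, at 2.57 (SE 0.46, limma adjusted p = 0.0249), which missed the threshold without mice 244, 247 or 254 (adjusted p 0.0551 to 0.0713), and the row Flt3l_ann1, at 2.32 (SE 0.47, limma adjusted p = 0.0448), which missed the threshold in all 7 fits without 1 mouse (adjusted p from 0.0603 to 0.0966). Gm24601, annotated as ribosomal RNA, had 154, 87.7 and 195.6 RPKM at day 2, 137, 85.5, 120.97 and 106.6 at day 5 and 519, 442, 624 and 1122 at day 10, a difference of 2.19 (SE 0.32, limma adjusted p = 0.0113). Ribosomal RNA is not polyadenylated, and its rows share reads among many copies.

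Over all genes tested 44.6% had a higher mean at day 10, with a median of −0.08. Several groups tied to neuronal function had no gene past the threshold. These were synaptic vesicle release (35 tested, 26 with a higher mean at day 10, median 0.31), nuclear genes of oxidative phosphorylation (82 tested, 61 higher, median 0.20), glutamate receptors (29 tested, 8 higher, median −0.30), GABA and glycine receptors (21 tested, 11 higher, median 0.12), guidance genes (44 tested, 19 higher, median −0.23) and cytosolic ribosomal proteins (76 tested, 16 higher, median −0.28). Hox genes (14 tested), imprinted growth genes (16), immediate early genes (12), calcium buffers and pumps (14), neurotrophic factor receptors (13), nodal and initial segment genes (15), matrix genes (5), chromatin genes (17), heterochronic genes (4) and MHC class I and interferon genes (11) also had none.

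At day 5 most of these genes were between the outer ages. Of the 60 genes that rose by day 10, 56 had a day 5 mean between those of day 2 and day 10, and the median gene had made 44.1% of its log2 step. Of the 43 that fell, 42 were between, and the median was 29.3%. Day 5 was nearer to day 2 than to day 10 for 36 of the rises and 35 of the falls. The genes were chosen for the difference of the outer ages, so an intermediate middle value is a description and not a separate finding. Vim and Crh had made the larger part of their change by day 5, while Cartpt, Lynx1, Scn2b, Dcx and St8sia2 made the larger part of it afterwards. The comparison of day 5 with day 2 gave 0 genes of 14450 by limma (0%), with 1208 at an unadjusted p under 0.05. Mouse values of days 2 and 5 did not overlap for 9.26% of genes.

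**Figure D3:**
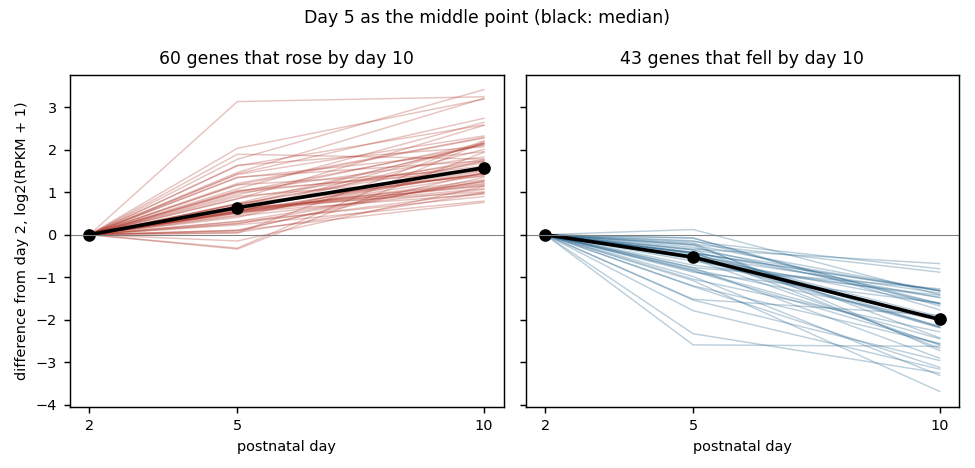
Mean difference from day 2 of the 60 genes that rose and the 43 that fell by day 10, on the scale of log2(RPKM + 1), against postnatal day; thin lines are genes and the black line joins the medians. The median fall is shallower up to day 5 than after it, and most rises and falls are partial at day 5.

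From day 5 to day 10, 68 genes of 14450 passed (0.471%), 38 higher (0.263%) and 30 lower (0.208%) at day 10, and 23 of them were also among the 103. The 2 comparisons share the day 10 mice. The mouse values of all 68 did not overlap, against 8.90% of all genes. The count was 0 without day 5 mouse 71 or without day 10 mouse 253, 3 to 26 without any other mouse but 1 (3 without 29 or 254, 6 without 30, 21 without 247 and 26 without 34), and 1.16% of genes without day 10 mouse 252. With quantile normalization the split turned, with 43.1% of the calls higher at day 10 against 55.9%. All day 5 mice had low library numbers and all day 10 mice high ones, so library number and age cannot be told apart. The same limit applies to day 5 against day 2, where every day 5 library had the lower number. Y-linked expression was seen in 2 of the 4 day 10 mice and in no day 5 mouse, and with a term for it 43 genes passed, 25 of them among the 68. Summed erythroid markers ranged from 75.6 to 717 RPKM at day 5 and 8.52 to 212 at day 10. None of the 4 tested erythroid genes passed, 0 had a higher mean at day 10 and the median difference was −2.01; their part in the result was not tested. Among the called genes with a mean of at least 10 RPKM at day 5 or day 10, the 4 with the largest rises were all noncoding RNAs. They were the 2 ribosomal RNA rows Gm24601, with a difference of 2.502 (SE 0.30, limma adjusted p = 0.0132), and n-R5-8s1, with 2.28 (SE 0.29, limma adjusted p = 0.0158), and the noncoding RNAs B230312C02Rik and E530011L22Rik. B230312C02Rik had 46.8, 22.7 and 13.8 RPKM in the day 2 mice, 8.57, 22.9, 25.1 and 16.5 in the day 5 mice and 72.4, 71.03, 81.8 and 118.7 in the day 10 mice; it differed by 2.24 (SE 0.38, limma adjusted p = 0.0271). E530011L22Rik differed by 2.03 (SE 0.30, limma adjusted p = 0.0262). All day 5 mice lay under all day 10 mice for both, and the day 2 mice also lay under the day 10 mice. E530011L22Rik is annotated as antisense, and without a stated strand its reads cannot be told from those of its partner. With the same minimum level, the largest falls were RMST_4, Nop56, Rps20 and St8sia2. The row RMST_4 was listed at 0 in all 4 day 10 mice and had 120.6, 119.9, 145 and 112.1 RPKM at day 5, but it was at 0 in 1 day 2 mouse and at 318 and 428 in the other 2. Nop56, of the complex that methylates ribosomal RNA, had 49.6, 84.1, 62.5 and 62.3 at day 5 and 3.17, 7.96, 3.29 and 40.4 at day 10, a difference of −2.84 (SE 0.56, limma adjusted p = 0.0458). Rps20, a ribosomal protein with many pseudogene copies, had 104.9, 119.6, 152.8 and 123.7 at day 5 and 20.1, 12.6, 27.6 and 25.02 at day 10, and its day 2 values, 145, 119.7 and 25.1, overlapped both. St8sia2 differed by −2.18 (SE 0.41, limma adjusted p = 0.0378). Each of the 8 missed the threshold in at least 2 of the 8 fits without 1 mouse.

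The change from day 2 to day 10 was then set against that of control hypoglossal and facial neurons in a single fit, where a positive value means that vagus neurons rose more or fell less. Of 17846 genes tested, 47 differed from hypoglossal neurons (0.263%; 30 higher, 0.168%, and 17 lower, 0.0953%) and 70 from facial neurons (0.392%; 36 higher, 0.202%, and 34 lower, 0.191%). The 47 became 27 without vagus mouse 252, 29 without 247, 30 without 253 or 254, 31 without 240 and 31 without hypoglossal day 10 mouse 252. The 70 became 44 without vagus mouse 247 and 45 without facial day 10 mouse 252. With vagus day 2 from mouse 26 alone, a fit added after seeing the data, the split turned: 13 genes were higher and 21 lower against hypoglossal neurons, 14 of the 34 among the 47, and 29 were higher and 41 lower against facial neurons, 28 of them among the 70. Of the genes described below, Neat1, Socs2 and Gal against hypoglossal neurons and Crabp2, Crip1, Ass1, Nfia, Kcng4, Scn4b, Scn1a, Gal, Syt1, Hpcal1 and Scn3b against facial neurons still passed in that fit. That fit still held mice 240 and 244 in the other nuclei. The change was the larger one in the other nucleus for most of the 47 and of the 70 genes. Of the 30 higher in vagus, 24 had a positive change there and 0 in hypoglossal neurons, with a median change of 0.40 in vagus and −1.93 in hypoglossal neurons. Of the 36 higher against facial neurons the medians were 0.35 and −1.67, and of the 34 lower −0.87 and 1.51. The vagus change was the larger in size for 5 of the 30, 5 of the 17, 5 of the 36 and 10 of the 34. Both comparisons use the same vagus mice, so their overlap carries no weight.

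Several transcripts had similar or higher means at day 10 in vagus neurons and were lower at day 10 in the somatic nuclei, where the change within a nucleus was not tested by itself. Gal ranged from 2165 to 3232 RPKM at day 2 and 2687 to 5761 at day 10 in vagus neurons, from 327 to 697 and 115.9 to 155 in facial neurons, and from 326 to 613 and 145 to 213.5 in hypoglossal neurons. Day 2 and day 10 did not overlap in either somatic nucleus and overlapped in vagus neurons. The difference in change was 2.32 (SE 0.31, limma adjusted p = 8.05e-05) against facial and 1.88 (SE 0.32, limma adjusted p = 0.00361) against hypoglossal neurons. Scn3b, the sodium channel subunit, ranged over 101.7 to 120.1 RPKM at day 2 and 72.2 to 128.2 at day 10 in vagus neurons. It had 31.1 to 61.4 RPKM at day 2 and 4.14 to 7.18 at day 10 in facial and 48.95 to 64.4 RPKM at day 2 and 3.098 to 17.6 at day 10 in hypoglossal neurons. Its differences were 2.68 (SE 0.43, limma adjusted p = 0.000875) and 2.28 (SE 0.44, limma adjusted p = 0.0123). Syt1, the calcium sensor of fast release, changed by 0.54 in vagus and −1.54 in facial neurons, a difference of 2.07 (SE 0.32, limma adjusted p = 0.000657). Hpcal1, a neuronal calcium sensor, changed by 0.42 and −1.35, a difference of 1.77 (SE 0.23, limma adjusted p = 5.17e-05). These comparisons stayed past the threshold in every fit without 1 sample of the 2 nuclei. Gal, Syt1, Hpcal1 and Scn3b against facial neurons were singled out with their values known.

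Among genes with a mean of at least 10 RPKM in a vagus group, the largest positive differences were of Crabp2, Crip1 and Grp against facial neurons and of Crip1, Crabp2 and Neat1 against hypoglossal neurons. Crabp2, which carries retinoic acid to the nucleus, had 152 to 353 RPKM at day 2 and 248.4 to 329 at day 10 in vagus neurons, 132 to 393 and 0 to 15.4 in facial and 32.2 to 174.7 and 0 to 12.7 in hypoglossal neurons. The differences were 5.94 (SE 0.94, limma adjusted p = 0.000813) and 4.43 (SE 0.97, limma adjusted p = 0.0339). Crip1, a small LIM-domain protein, had 89.4 to 161.3 RPKM at day 2 and 138 to 277 at day 10 in vagus neurons and 19.9 to 93.5 RPKM at day 2 and 0 to 5.76 at day 10 in facial neurons. Its differences were 5.57 (SE 0.996, limma adjusted p = 0.00318) and 4.46 (SE 1.02, limma adjusted p = 0.0497). Against hypoglossal neurons Crabp2 missed the threshold without vagus mice 26, 240, 247, 252, 253 or 254, or hypoglossal mice 26, 28, 244, 247 or 252 (adjusted p 0.0531 to 0.114). Crip1 missed the threshold without vagus mice 26, 240, 244, 247, 252, 253 or 254, or hypoglossal mice 28, 240, 244, 247 or 252 (adjusted p 0.0701 to 0.139). The peptide gene Grp differed by 5.28 (SE 1.11, limma adjusted p = 0.0186) from facial neurons and missed the threshold without vagus mice 244 or 252 (adjusted p 0.0532 to 0.0851). Sct, encoding secretin, differed by 3.67 (SE 0.77, limma adjusted p = 0.0174) and missed the threshold without vagus mice 240 or 247, or facial mouse 247 (adjusted p 0.0536 to 0.102). Slc7a3, a transporter of cationic amino acids, differed by 2.85 (SE 0.66, limma adjusted p = 0.042) and missed the threshold without vagus mice 26, 244, 247, 252, 253 or 254, or facial mice 26, 28, 244, 247, 252, 253 or 254 (adjusted p 0.054 to 0.163). Ass1, of the citrulline and arginine cycle, changed by 1.47 in vagus and −1.42 in facial neurons, a difference of 2.90 (SE 0.52, limma adjusted p = 0.00351). Against hypoglossal neurons Socs2, a brake on cytokine signalling, differed by 2.37 (SE 0.37, limma adjusted p = 0.00123): it changed by −0.39 in vagus and −2.76 in hypoglossal neurons. The adhesion gene Pvrl3 differed by 2.34 (SE 0.51, limma adjusted p = 0.0337) and missed the threshold without vagus mice 26, 244, 252 or 253, or hypoglossal mice 26, 28, 240, 244 or 254 (adjusted p 0.054 to 0.12). Neat1 differed through its rise in vagus neurons: it changed by 3.21 against −0.37 in hypoglossal and 0.43 in facial neurons. Its difference against hypoglossal neurons was 3.58 (SE 0.61, limma adjusted p = 0.00361).

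**Figure D4:**
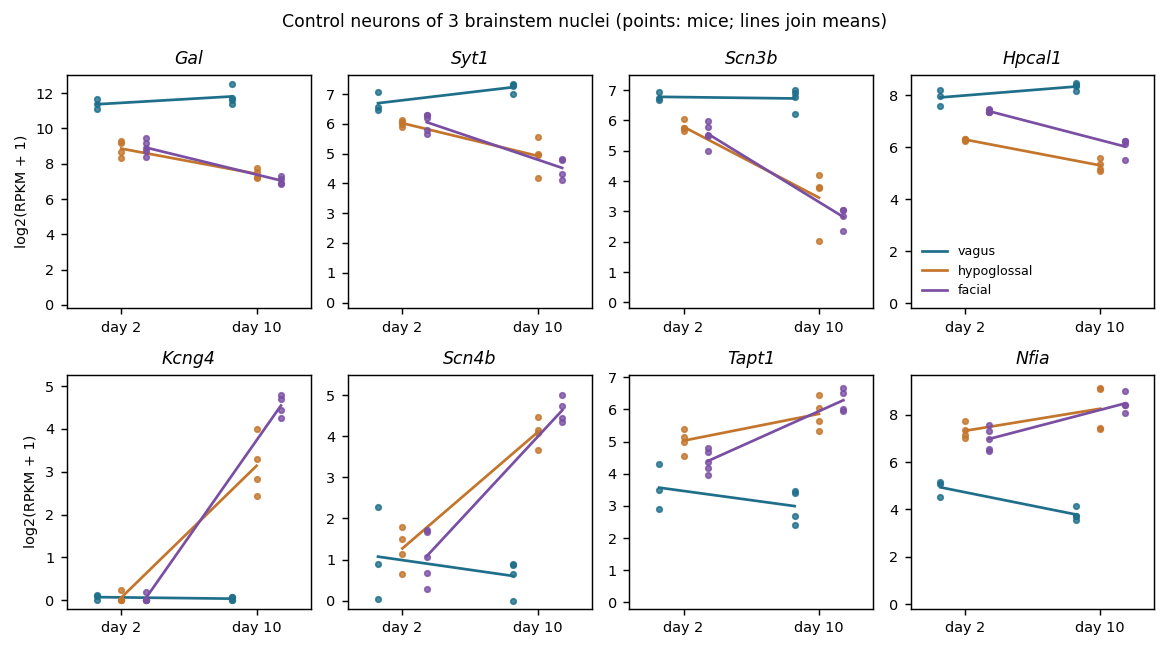
Level of 8 genes at days 2 and 10 in control vagus (blue), hypoglossal (orange) and facial neurons (purple), as log2(RPKM + 1); points are mice (3 to 5 a group) and lines join group means. Gal, Syt1, Scn3b and Hpcal1 stay level or are higher at day 10 in vagus neurons and lower in the other nuclei. Kcng4, Scn4b, Tapt1 and Nfia are higher at day 10 in the other nuclei only. Tapt1 and Nfia are lower at day 10 in vagus neurons, and their differences in change passed against facial but not hypoglossal neurons.

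The channel subunits Kcng4 and Scn4b had higher values at day 10 than at day 2 in facial and hypoglossal neurons and not in vagus neurons. Of 10 tested sodium channel genes Scn3b differed upward and Scn4b and Scn1a downward against facial neurons, and of 43 tested potassium and HCN channel genes, a list without Kcng4, 0 differed upward and 1 downward. Kcng4, a modifier subunit of delayed-rectifier potassium channels, was at most 0.0517 RPKM in vagus neurons at day 10. It had 0 to 0.139 RPKM at day 2 and 18.1 to 26.6 at day 10 in facial and 0 to 0.177 RPKM at day 2 and 4.37 to 14.95 at day 10 in hypoglossal neurons. The difference against facial neurons was −4.55 (SE 0.36, limma adjusted p = 4.58e-10). Scn4b, the sodium channel beta 4 subunit linked to resurgent current, ranged from 0.0289 to 3.81 at day 2 and 0 to 0.862 at day 10 in vagus neurons, and from 0.224 to 2.27 and 19.3 to 30.99 in facial neurons. It had 0.557 to 2.46 RPKM at day 2 and 11.8 to 21.4 at day 10 in hypoglossal neurons. The difference against facial neurons was −4.02 (SE 0.58, limma adjusted p = 0.000211). Scn1a, a pore-forming sodium channel subunit, differed by −1.49 (SE 0.35, limma adjusted p = 0.0433) and missed the threshold without vagus mice 26, 240, 247, 252 or 254, or facial mice 28, 240, 244, 247, 252, 253 or 254 (adjusted p 0.0614 to 0.177). All 3 genes were singled out with their values known. The transcription factor Nfia had 22.4 to 35.2 RPKM at day 2 and 10.9 to 16.5 at day 10 in vagus and 88.1 to 188.5 RPKM at day 2 and 267 to 521 at day 10 in facial neurons, a difference of −2.65 (SE 0.49, limma adjusted p = 0.00456). Chodl, a marker of fast motor neurons, differed by −2.52 (SE 0.60, limma adjusted p = 0.0492) and missed the threshold without vagus mice 26, 244, 247, 253 or 254, or facial mice 14, 26, 28, 240, 244, 247, 252, 253 or 254 (adjusted p 0.0547 to 0.175). Tapt1 differed by −2.46 (SE 0.45, limma adjusted p = 0.00439). Neither Nfia nor Tapt1 passed against hypoglossal neurons. Aard differed by −2.76 (SE 0.63, limma adjusted p = 0.0377) and missed the threshold without vagus mice 26, 240, 247, 253 or 254, or facial mice 14, 26, 247, 252 or 254 (adjusted p 0.0502 to 0.116). Ldoc1 differed by −3.31 (SE 0.78, limma adjusted p = 0.0433) and missed the threshold without vagus mice 26, 240, 244, 247, 252 or 253, or facial mice 26, 28, 244, 247, 252, 253 or 254 (adjusted p 0.0521 to 0.141).

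Of 11 tested oligodendrocyte genes the change of 1, Mbp, differed from that in facial neurons and of 1, Cnp, from that in hypoglossal neurons. Both tests were of the change, which was lower in vagus neurons, and not of the level. At day 10 the Mbp level was also lower in every vagus mouse than in every facial mouse. The median differences in change of the list were −2.63 and −2.85. Mbp, encoding myelin basic protein, ranged from 12.2 to 38.5 RPKM at day 2 and 11.6 to 32.8 at day 10 in vagus neurons, and had 2.45 to 18.7 RPKM at day 2 and 112.1 to 171.04 at day 10 in facial neurons, a difference of −4.14 (SE 0.75, limma adjusted p = 0.00344). Summed oligodendrocyte markers in facial neurons ranged from 31.4 to 58.3 at day 2 and 258.4 to 315 at day 10. This sum was thus higher at day 10 there and overlapped between the ages in vagus neurons, and their part in the other differences was not tested. Cnp, another myelin gene, differed from hypoglossal neurons by −2.35 (SE 0.52, limma adjusted p = 0.0346) and missed the threshold without vagus mice 240, 244, 247, 252 or 253, or hypoglossal mice 26, 28, 253 or 254 (adjusted p 0.0531 to 0.103). Pdgfb, a growth factor, differed from hypoglossal neurons by −2.97 (SE 0.62, limma adjusted p = 0.0242) and missed the threshold without vagus mice 240, 244, 252 or 253, or hypoglossal mice 26, 247 or 252 (adjusted p 0.0519 to 0.0898). Ifitm10 differed from hypoglossal neurons by −1.75 (SE 0.34, limma adjusted p = 0.0118) and stayed past the threshold in all 15 fits without 1 library. 1110008P14Rik differed from hypoglossal neurons by −1.45 (SE 0.33, limma adjusted p = 0.0497) and missed the threshold without vagus mice 26, 244, 253 or 254, or hypoglossal mice 26, 240, 244, 247, 252, 253 or 254 (adjusted p 0.0627 to 0.203). Mapk10, the neuronal JNK kinase, differed from hypoglossal neurons by −1.26 (SE 0.29, limma adjusted p = 0.0497) and missed the threshold without vagus mice 26, 240, 244, 247, 252 or 254, or hypoglossal mice 28, 240, 244, 252, 253 or 254 (adjusted p 0.0549 to 0.112).

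The same ages were compared in SMA vagus neurons, which share no library with the controls. Every SMA day 10 library also had a higher library number than every SMA day 2 library. Age and library number thus cannot be told apart in SMA vagus neurons either. There 309 of 15318 genes passed (2.02%; 142 higher, 0.927%, and the others lower, 1.09%), and 0.719% of genes passed without SMA day 10 mouse 258. All 103 control genes were tested in SMA mice, and 43 of them passed in the same direction, which is 41.7% of the control genes and 13.9% of the SMA genes. The direction was the same for 98 of 103, against 63.8% of the 14024 genes tested in both. The median log2 difference of the 60 rises was 1.58 in controls and 0.92 in SMA mice, and of the 43 falls −1.99 and −0.89. The control medians belong to genes chosen in controls, so the smaller values in SMA mice do not test a difference. In SMA mice Scn2b changed by 2.34 (adjusted p = 0.000184), Dcx by −2.39 (adjusted p = 0.000184), Nrep by −1.95 (adjusted p = 0.00072), Vim by −2.27 (adjusted p = 0.00938), Fabp7 by −2.47 (adjusted p = 0.00026), Cckar by 2.01 (adjusted p = 0.0255), Hspb8 by 1.59 (adjusted p = 0.0037), Neat1 by 1.72 (adjusted p = 0.0276) and Cartpt by 1.28 (adjusted p = 0.0317). Of the 29 tested immature neuron genes 12 fell and 0 rose there. Slc16a11, which was among the largest rises in controls, changed by 0.91 (adjusted p = 0.474), Ifitm2 by −0.89 (adjusted p = 0.108) and Crh by 0.94 (adjusted p = 0.398). The 5 genes with the opposite direction were Iars2, Cdc45, mmu-mir-7069, Nudt8 and Dctpp1. In the test of genotype by age 0 of 16703 genes passed by limma, with 970 at an unadjusted p under 0.05, so no gene was shown to change differently with age in SMA vagus neurons (5 genes passed without control day 2 mouse 26).

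**Figure D5:**
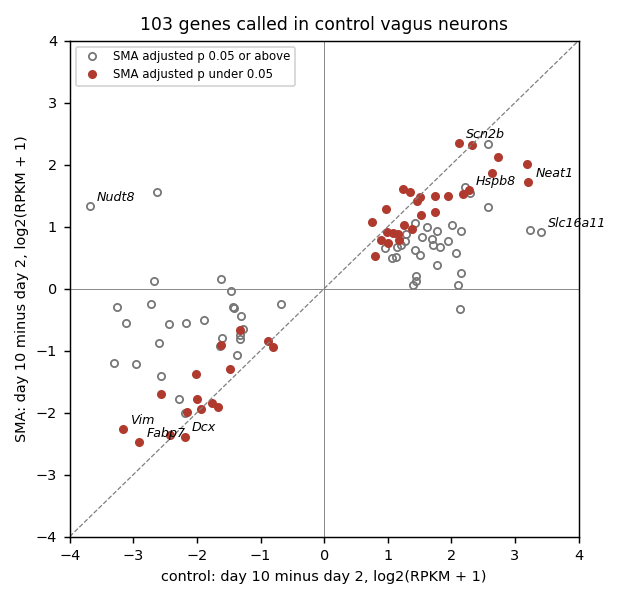
Log2 difference between day 10 and day 2 of the 103 genes called in control vagus neurons, in controls (horizontal axis) and in SMA vagus neurons (vertical axis), both on the scale of log2(RPKM + 1); filled points also passed in SMA mice and the dashed line marks equality. The 98 genes in the lower left and upper right moved the same way in both, and Nudt8 is one of the 5 that did not.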

How the data were processed

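RNA-seq libraries of laser-captured neurons were analysed. The authors deposited RPKM values per gene for all 168 libraries. Per the submitters' processing notes, STAR 2.4.1c and the builds mm10 and hg19 were used. The counting tool and annotation are not given in the sources used here. Of 39410 rows, 35283 (89.5%) matched 1 gene of GENCODE M21 by name.

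Groups came from the labels. The tests were run by limma 3.58.1 (R 4.3.3) after 1 was added to each RPKM and the log2 taken, keeping genes with an RPKM of at least 1 in at least 3 samples of the fit. P-values were two-sided and Benjamini-Hochberg adjusted over all genes tested, with a threshold of 0.05. The 3 control ages shared 1 fit, as did the ages of vagus, hypoglossal and facial controls. The code was tested on simulated data. RPKM give no read counts, so no count model was used. Each library came from 1 mouse, and within vagus neurons p-values measure the spread between mice. In the fit across nuclei, libraries of the same mouse were treated as independent, so p-values there measure the spread between libraries.

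Members and lists were chosen with earlier results of these data known. Named genes were list members past the threshold with up to 3 abundant ones that were not, and the largest changes with non-overlapping mice and a mean of at least 10 RPKM. Exceptions, singled out after their values were seen, were Chat, Thy1, Lynx1, Ddc, Nppb, Cxadr, Dynlt3, Dynlt1-ps1, Dpysl3, Th, Kcng4, Scn4b, Scn1a, Nefh, Syt1, Hpcal1, the galanin contrasts and the facial contrast of Scn3b. Mice gave libraries to several nuclei, per the labels. The deviations of same-mouse libraries from their group means correlated at -0.0126 to 0.0972 (vagus with hypoglossal, 10 mice) and -0.0177 to 0.115 (vagus with facial, 10 mice). Days 2, 5 and 10 had different mice and could not be paired. Alternatives were no filter, another pseudocount (0.1), quantile normalization, array weights, other sample sets, the mouse as a block and leaving out each mouse. Day 2 from mouse 26 alone and a term for Y-linked expression were added after seeing the data. Results for some genes are not reported here.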

Additional observations from a re-analysis of the deposited data

Results flagged for a closer look

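Among the groups of 4 or 5 mice checked for a single value far from the rest, 13 values (5.75% of the checks) stood apart, and chance flags about 1 in 20 groups. At day 10 in vagus neurons, mouse 247 was high for Marcksl1 (150.5 RPKM), Vim (9.89 RPKM) and Tomm40l (6.41 RPKM), mouse 252 for Nudt8 (3.39 RPKM) and mouse 254 for Nop56 (40.4 RPKM). At day 5, mouse 71 was high for Gap43 (2660.3 RPKM), Tomm40l (17.2 RPKM) and Lynx1 (23.2 RPKM), mouse 29 for Tmsb10 (2981 RPKM) and mouse 34 for Lama4 (8.19 RPKM). In facial controls, day 2 mouse 14 was low for Crip1 (19.9 RPKM), mouse 240 high for Kcng4 (0.139 RPKM) and day 10 mouse 252 low for Hpcal1 (45.1 RPKM). For Kcng4 there and Tomm40l at day 10 in vagus neurons the other mice were all at 0. Any single value above 0 would have been flagged, so these flags reflect the floor.

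The change from day 2 to day 10 differed by a limma interaction test between vagus and hypoglossal controls for 47 genes and between vagus and facial controls for 70. Against hypoglossal neurons the differences in log2 change were Crip1 (4.46), Crabp2 (4.43), Neat1 (3.58), Socs2 (2.37), Pvrl3 (2.34), Scn3b (2.28), Pdgfb (−2.97), Cnp (−2.35), Ifitm10 (−1.75), 1110008P14Rik (−1.45), Mapk10 (−1.26) and Gal (1.88). Against facial neurons they were Crabp2 (5.94), Crip1 (5.57), Grp (5.28), Sct (3.67), Ass1 (2.90), Slc7a3 (2.85), Mbp (−4.14), Ldoc1 (−3.31), Aard (−2.76), Nfia (−2.65), Chodl (−2.52), Tapt1 (−2.46), Kcng4 (−4.55), Scn4b (−4.02), Gal (2.32), Syt1 (2.07), Hpcal1 (1.77), Scn3b (2.68) and Scn1a (−1.49).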

How the results depend on the processing

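Shares are percentages of genes tested that passed. Leaving out 1 library at a time gave 0.176% to 0.830% for day 10 against day 2 (0.713% as reported), 0 to 0.0281% for day 5 against day 2 (0), 0 to 1.16% for day 10 against day 5 (0.471%), 0.152% to 0.293% for the difference from hypoglossal neurons (0.263%), 0.247% to 0.343% from facial neurons (0.392%), 0.719% to 1.84% in SMA mice (2.02%) and 0 to 0.0301% for genotype by age (0). In the fits across nuclei, libraries of the same mouse from other nuclei stayed in. Without the filter the shares were 0.129% for day 10 against day 2, 0.00886% for day 5 against day 2, 0.00443% for day 10 against day 5, 0.111% against hypoglossal neurons and 0.702% in SMA mice, with more genes tested. With array weights they were 0.346%, 0.00692%, 1.09% and, against hypoglossal neurons, 0.174%. Fitting only 2 ages gave 0.204%, 0.0149% and 0.816%, and quantile normalization 0.00692% for day 5 against day 2. A fit of all 6 vagus groups gave 1.02% for controls and 3.31% for SMA mice. Chosen after seeing the data, day 2 from mouse 26 alone gave 0.0216% for day 10 against day 2, and the term for Y-linked expression 0.353% and, for day 10 against day 5, 0.298%. Some of these settings also changed the number of genes or samples, and the cause of the shifts was not tested. With the mouse as a replicate block the shares were 0.331% (59 genes) against hypoglossal and 0.448% (80 genes) against facial neurons, and no call of a named gene changed. Of the values of named genes, 1256 kept their direction and side of the threshold, 528 lost the threshold, 6 gained it and 5 turned direction. The log2 difference of Scn3b was −0.15 to 0.12 over the fits without 1 mouse (0.02 without day 2 mouse 244) and 0.040 with mouse 26 alone, that of Tuba1a −0.20 to 0.090 (highest without day 10 mouse 252) and that of Tmsb10 0.11 with mouse 26 alone. None of these 3 passed in the reported fit. Depth was lowest at day 10, which limits low genes there most.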
